A study of Mus musculus with 8 samples.

Results

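The Id genes (inhibitors of DNA binding) were followed in mouse neurosphere cells across the 4 groups and 2 experiments of the series. The members were all probe sets annotated to Id1, Id2, Id3 or Id4, which gave 4 probe sets, 1 for each gene, of 12488 on the array. By the array annotation they were 100050_at (Id1), 93013_at (Id2), 92614_at (Id3) and 96144_at (Id4). All 4 passed the filter on low signal, which asked for a signal of 50 on at least 2 arrays, as did 7987 probe sets in all. The cells were grown as neurospheres, floating cultures of neural stem and progenitor cells, from single forebrains of embryos at embryonic day 14.5. Every embryo carried a bcl2 transgene, so the untreated cells carried it too; its promoter is not given in the sources used here. AzaC/TSA cells received both 500 nM 5-aza-2'-deoxycytidine (AzaC, an inhibitor of DNA methyltransferases) and 150 nM trichostatin A (TSA, an inhibitor of histone deacetylases). TSA cells received 150 nM TSA alone, AzaC cells received 500 nM AzaC alone, each for 2 days, and untreated cells received neither. Each group had 2 arrays, 1 from each of 2 independent experiments, and the number of arrays limits the precision.

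Id proteins hold a helix-loop-helix domain but lack the basic stretch that touches DNA. They pair with E proteins, the common partners of tissue-specific basic helix-loop-helix (bHLH) factors, and so keep those partners from binding DNA. In many cells the Id genes are direct targets of BMP signals carried by Smad proteins, and in the developing forebrain Id1 and Id3 are known for holding back the differentiation of neural precursors. Id2 also binds the retinoblastoma protein, and Id4 is known for restraining the oligodendrocyte lineage.

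AzaC acts on DNA methylation, which in mammals lies mainly at CG dinucleotides, so the CG content of the regions upstream of the Id genes is shown. Methylation itself was not measured on these arrays. The RefSeq promoter table (build GRCm38.p6) matched 3 of the 4 members, Id2, Id3 and Id4. The 250 bases before the transcript start follow, 5′ to 3′ on the gene's strand, with every CG in capitals. They lie at chr12:25096093-25096342 on the minus strand for Id2, chr4:136143572-136143821 on the plus strand for Id3 and chr13:48260866-48261115 on the plus strand for Id4.
Id2: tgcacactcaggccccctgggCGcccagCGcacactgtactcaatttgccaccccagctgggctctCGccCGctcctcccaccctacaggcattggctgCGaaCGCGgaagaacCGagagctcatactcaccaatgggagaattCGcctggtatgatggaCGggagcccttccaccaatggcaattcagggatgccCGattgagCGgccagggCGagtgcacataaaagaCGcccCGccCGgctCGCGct
Id3: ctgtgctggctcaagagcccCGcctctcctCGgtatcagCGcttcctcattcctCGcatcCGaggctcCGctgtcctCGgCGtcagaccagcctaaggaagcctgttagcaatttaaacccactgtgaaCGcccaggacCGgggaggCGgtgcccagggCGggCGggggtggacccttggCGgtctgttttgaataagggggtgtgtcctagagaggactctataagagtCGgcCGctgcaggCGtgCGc
Id4: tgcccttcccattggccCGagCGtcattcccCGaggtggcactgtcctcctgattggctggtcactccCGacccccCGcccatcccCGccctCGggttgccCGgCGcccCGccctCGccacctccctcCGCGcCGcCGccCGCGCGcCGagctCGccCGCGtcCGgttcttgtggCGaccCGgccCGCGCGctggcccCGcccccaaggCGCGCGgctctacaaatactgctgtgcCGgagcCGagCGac
The Id2 and Id3 windows each held 18 CG, a count reached by 21.7% of the 32851 windows of the same length in the table. The Id4 window held 35 CG, reached by 2.97% of windows, and the median window held 6. The GC box GGGCGG, counted on both strands and overlapping CG by its own letters, occurred 1 time for Id2, 2 times for Id3 and 5 times for Id4, and 32.7% of all windows held at least 1. The CCAAT box, on both strands, occurred 3 times for Id2 and 2 times for Id4 and was not found in the Id3 window, while 33.8% of all windows held at least 1.

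The arrays had been scaled by the authors to the same 2%-trimmed mean of 200.1, and signals are given on that linear scale. Array medians lay between 59.2 and 72.7. The label of the cells was checked against marker genes. Nes, an intermediate filament of neural progenitors, had signals of 1049 to 3003 over the 8 arrays, and the stem cell factor Sox2 had 2390.6 to 4830.4. The radial glial marker Fabp7 had 1062.9 to 10920.1, and the other 5 markers of that list were dimmer, with 39.2 to 159.7 for Pax6, 14.1 to 88.3 for Sox1, 12.4 to 93.8 for Hes5, 10.3 to 78 for Msi1 and 21.3 to 56 for Vim. Of other cell types, Ptprc of blood cells, Aif1 and Itgam of microglia, Cdh5 of endothelium and Mog of oligodendrocytes lay on every array below a signal of 20, the floor to which lower values were raised. Other markers of the same lists had signal on some or all arrays, with 30 to 474.1 for Cd68 and 28.3 to 260.3 for Cx3cr1 of microglia, 42.2 to 67.4 for Mag of oligodendrocytes, 10.6 to 97.3 for Pecam1 of endothelium and 5.9 to 95 for Cd34 of blood cells. The same held for Csf1r (7.8 to 123.2), Kit (11.1 to 87.1), Mbp (28.4 to 71.1) and Pdgfra (18 to 93.9). Tubb3 of neurons had 834.1 to 2375.9, and of astrocytes Aldoc had 217.8 to 3451 and Clu 71.8 to 2048.8. The rest of the neuronal and astrocyte markers reached at most 615.4 (Snap25). The 4 markers of fibroblasts and meninges had 239.9 to 457.3 (Col1a2), 51.2 to 129 (Col1a1), 7 to 78.3 (Dcn) and 3.6 to 34.6 (Lum). In these bulk samples, fewer cells of a type and less RNA per cell cannot be told apart.

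Id1 was higher in cells exposed to TSA, with or without AzaC. Its signals in experiments 1 and 2 were 450 and 379.8 in AzaC/TSA cells and 425.4 and 506.9 in TSA cells, against 193.4 and 190.2 in AzaC cells and 315.1 and 173.4 in untreated cells. The 4 arrays with TSA all lay above the 4 without it, and the highest array without TSA was untreated cells of experiment 1. Such a gap between arrays with and without TSA was seen upward in 10.9% of the tested probe sets. The group means were 414.9 ± 49.6 in AzaC/TSA cells, 466.1 ± 57.6 in TSA cells, 191.8 ± 2.26 in AzaC cells and 244.2 ± 100.2 in untreated cells (SD, n = 2 each). In falling order they ran TSA, AzaC/TSA, untreated, AzaC. TSA and AzaC/TSA arrays overlapped in range, as did untreated and AzaC arrays, so the order within each of these pairs did not exceed the spread.

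Changes were tested with limma over all 7987 probe sets, on log2 signals and with Benjamini-Hochberg adjustment, at a threshold of 0.05. Over the 4 arrays with TSA and the 4 without, Id1 rose 2.07-fold (log2 change 1.05, SE 0.23, 95% interval 0.52 to 1.58, adjusted p = 0.0193 by limma). It ranked 640 of 7987 by p-value in that comparison, in which 14.5% of the tested probe sets passed and 6.95% passed upward, 7.54% downward (23.9%, 11.7% and 12.2% with the experiment as a block). The call depended on single arrays: without untreated 2, AzaC 2, TSA 1, TSA 2 or AzaC/TSA 1 the adjusted p exceeded the threshold, up to 0.0726, while the log2 change stayed between 0.83 and 1.26. In the comparisons of 2 arrays with 2, Id1 had log2 changes of 0.99 (SE 0.33, adjusted p = 0.134 by limma) for TSA against untreated cells, 1.11 (SE 0.33, 0.122) for AzaC/TSA against AzaC cells and 0.82 (SE 0.33, 0.242) for AzaC/TSA against untreated cells. With the experiment as a block, AzaC/TSA against AzaC passed (adjusted p = 0.0475 by limma), with adjusted p from 0.0475 to 0.367 over 16 alternatives. In that comparison 2.79% of the tested probe sets passed, and 9.32% with the block. These comparisons share their untreated, AzaC or AzaC/TSA arrays, so they are not independent of one another.

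Within each experiment and AzaC state, Id1 was higher with TSA in 4 of 4 pairs of arrays. The fold differences were 1.35 (TSA over untreated) and 2.33 (AzaC/TSA over AzaC) in experiment 1, and 2.92 and 2.0 in experiment 2. The smallest of the 4 came from the pair with the highest untreated array. A rise in 4 of 4 pairs was seen in 20.7% of the tested probe sets. The TSA change did not pass a test of difference between experiments (experiment 2 minus 1, log2 0.45, SE 0.38, adjusted p = 0.736 by limma, where 0.0751% of tested probe sets passed), and it did not pass a test of dependence on AzaC (interaction log2 0.12, SE 0.47, adjusted p = 1.0).

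**Figure D1:**
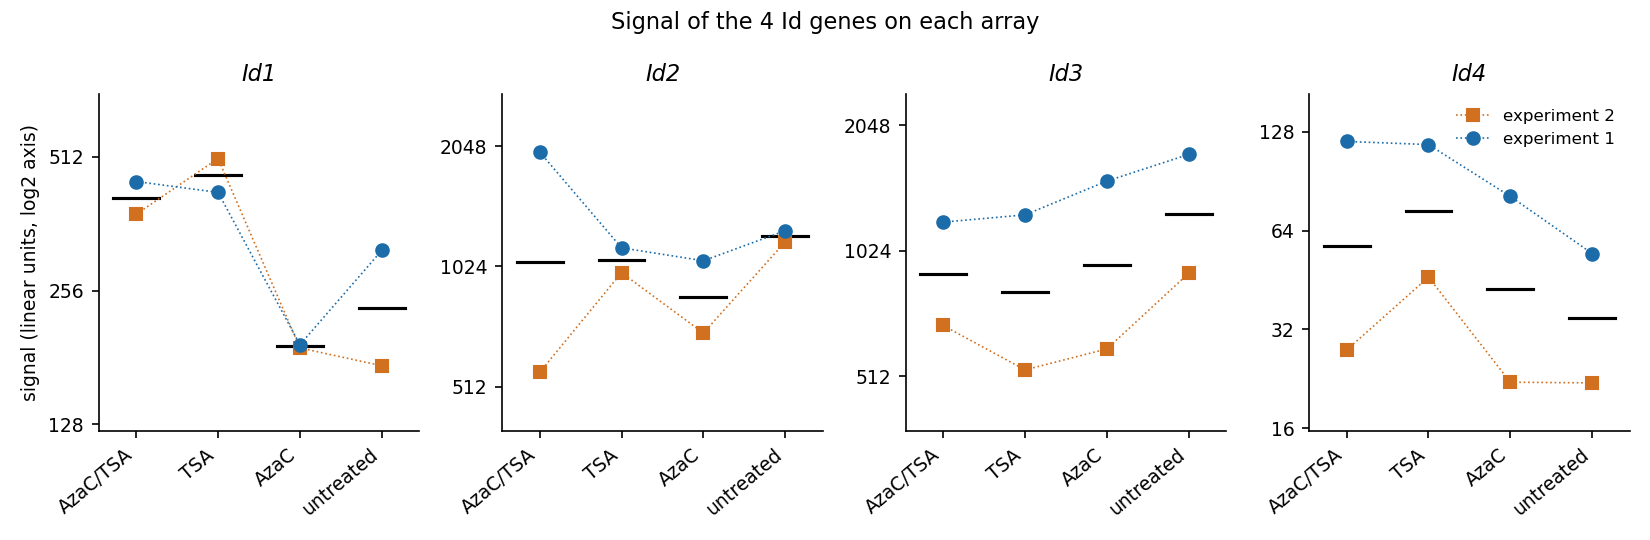
Signal of each Id gene (log2 axis, linear units) in AzaC/TSA, TSA, AzaC and untreated cells. Points are single arrays, orange squares for experiment 2 and blue circles for experiment 1, joined by dotted lines, and bars are geometric means of 2 arrays. The Id1 arrays with TSA (379.8 to 506.9) lie above those without (173.4 to 315.1), and the Id3 and Id4 arrays of experiment 2 lie below those of experiment 1.

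Id4 lay higher with TSA within each experiment, but its level differed more between the experiments. Its signals in experiments 1 and 2 were 119.7 and 27.7 in AzaC/TSA cells and 117.1 and 46.2 in TSA cells, against 81.4 and 22.1 in AzaC cells and 54.5 and 22 in untreated cells. Arrays with and without TSA overlapped, since every experiment 2 array lay below every experiment 1 array. The TSA fold differences were 2.15 and 1.47 in experiment 1 and 2.1 and 1.25 in experiment 2, each pair given without and then with AzaC. Such a rise in 4 of 4 pairs was seen in 20.7% of the tested probe sets. Over 4 against 4 arrays the log2 change was 0.76 (SE 0.64, 95% interval -0.69 to 2.22, adjusted p = 0.473 by limma), and with the experiment as a block it did not pass either (adjusted p = 0.13). Group means were 73.7 ± 65.1 in AzaC/TSA, 81.7 ± 50.1 in TSA, 51.8 ± 41.9 in AzaC and 38.2 ± 23.0 in untreated cells (SD, n = 2 each). They fell in the order TSA, AzaC/TSA, AzaC, untreated, and no neighbours differed beyond their spread. The experiment 2 signals of AzaC and untreated cells, 22.1 and 22, lay just above the floor of 20.

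Id3 did not pass in any comparison of treatments. Its signals in experiments 1 and 2 were 1199 and 677.5 in AzaC/TSA cells and 1248.1 and 530.1 in TSA cells, against 1504.2 and 595.3 in AzaC cells and 1742.8 and 904.4 in untreated cells. In each experiment all 3 treated arrays lay below the untreated one. How many of all tested probe sets had this order was not counted, so it is a description only. Group means were 938.2 ± 368.8 in AzaC/TSA, 889.1 ± 507.7 in TSA, 1049.8 ± 642.7 in AzaC and 1323.6 ± 592.8 in untreated cells (SD, n = 2 each). They fell in the order untreated, AzaC, AzaC/TSA, TSA, with no neighbours apart beyond their spread. TSA against untreated cells gave a log2 change of -0.63 (SE 0.56, 95% interval -1.90 to 0.65, adjusted p = 0.596 by limma). With the experiment as a block the SE fell to 0.21 and the adjusted p was 0.0854, still short of the threshold. AzaC/TSA against AzaC cells gave -0.07 (SE 0.56), and the 2 experiments lay on opposite sides of 0 there (-0.33 and 0.19).

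Id2 did not pass in any comparison of treatments either. Its signals in experiments 1 and 2 were 1980.5 and 556.4 in AzaC/TSA cells and 1140 and 988.2 in TSA cells, against 1058.1 and 697.9 in AzaC cells and 1258.5 and 1180.9 in untreated cells. The highest and the lowest Id2 signals of the series were thus the AzaC/TSA arrays of experiments 1 and 2, which differed 3.56-fold. Group means were 1268.5 ± 1007 in AzaC/TSA, 1064.1 ± 107.3 in TSA, 878 ± 254.7 in AzaC and 1219.7 ± 54.9 in untreated cells (SD, n = 2 each). They fell in the order AzaC/TSA, untreated, TSA, AzaC. Both TSA arrays and both AzaC arrays lay below both untreated arrays, and the 95% intervals of both changes included 0. The share of all tested probe sets with such gaps of 2 arrays against 2 was not counted. TSA against untreated cells gave a log2 change of -0.20 (SE 0.51, 95% interval -1.34 to 0.94, adjusted p = 0.866 by limma), and 4 against 4 arrays gave 0.04 (SE 0.36, 95% interval -0.76 to 0.85).

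**Figure D2:**
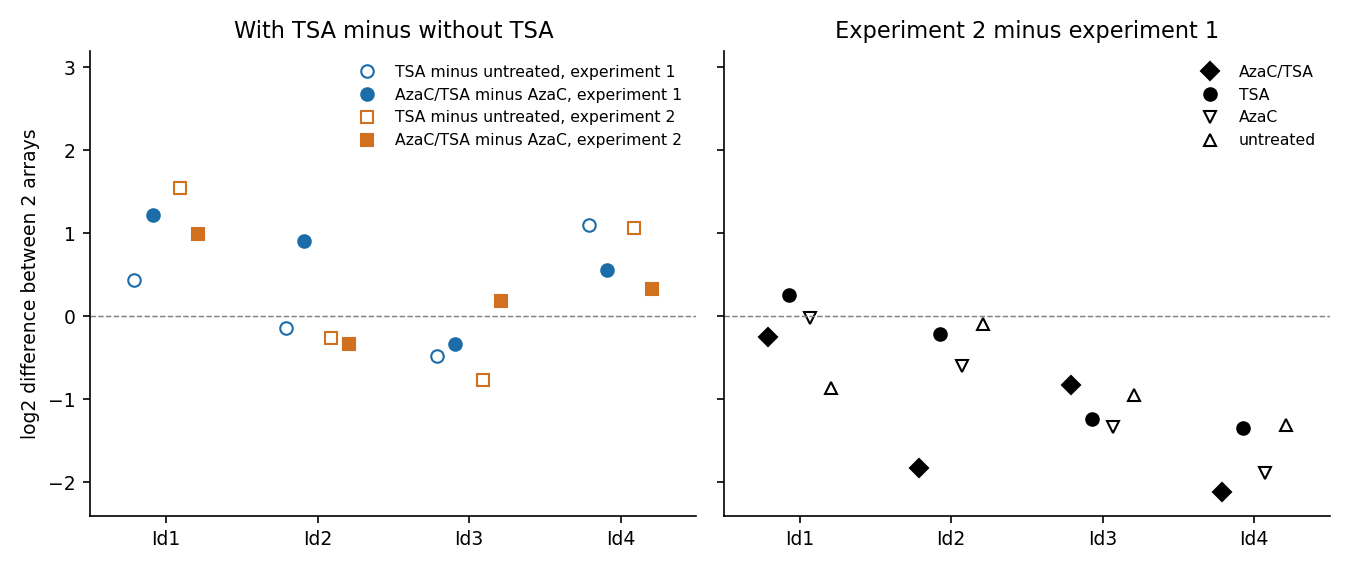
Log2 differences between single arrays. Left, cells with TSA minus cells without TSA of the same experiment and AzaC state; right, experiment 2 minus experiment 1 of the same group. The 4 differences of Id1 and of Id4 on the left lie above 0, and those of Id3 and Id4 on the right lie below 0.

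AzaC alone left no Id gene past the threshold. For AzaC against untreated cells the log2 changes were -0.29 (SE 0.33) for Id1, -0.50 (SE 0.51) for Id2, -0.41 (SE 0.56) for Id3 and 0.29 (SE 0.91) for Id4. By limma 0 of the 4 passed, 0 had an unadjusted p under 0.05, and 0% of all tested probe sets passed. For AzaC/TSA against TSA cells the same counts held, with log2 changes from -0.35 (Id4) to 0.15 (Id3). Over the 4 arrays with AzaC and the 4 without, the changes ran from -0.26 (Id2) to -0.03 (Id4), with 95% intervals that reached -1.07 for Id2 and 1.42 for Id4. For TSA against untreated and AzaC/TSA against untreated cells, 0 of 4 passed by limma, where 5.02% and 3.12% of tested probe sets passed (12.2% and 9.34% with the block). In each of these comparisons 1 of 4, Id1, had an unadjusted p under 0.05 by limma. The share of all tested probe sets under that unadjusted limit was not counted. Id1 ranked 908 and 1147 by p-value among all tested probe sets, so at least that many lay under the limit.

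The experiments differed in the level of Id3 and Id4. In the fit with the experiment as a term, a test chosen after these values had been seen, Id3 was 2.12-fold lower in experiment 2 than in experiment 1 (log2 change -1.09, SE 0.15, adjusted p = 0.00462 by limma). Its signals were 530.1 to 904.4 in experiment 2, against 1199 to 1742.8 in experiment 1, without overlap, and it ranked 54 of 7987 by p-value. The difference was found in every group, from 1.77-fold in AzaC/TSA to 2.53-fold in AzaC cells. Id4 was 3.16-fold lower in experiment 2 (-1.66, SE 0.33, adjusted p = 0.0267 by limma), with 22 to 46.2 in experiment 2, against 54.5 to 119.7 in experiment 1. Id4 reached the filter signal of 50 on 4 arrays of experiment 1 and 0 of experiment 2. It passed the filter through experiment 1 alone, so it had to differ there, and its call gives no support of its own. Id2 (-0.68, SE 0.26, adjusted p = 0.172) and Id1 (-0.22, SE 0.21, adjusted p = 0.608) did not pass. In this comparison 4.22% of tested probe sets passed and 2.64% passed downward, and the arrays of 3.94% did not overlap, downward. Id3 lost its call when TSA 1 or TSA 2 was left out (adjusted p = 0.0519 and 0.0506), with a log2 change of -1.04 in both cases. Id4 lost its call without untreated 1 or any array of the AzaC, TSA or AzaC/TSA groups (adjusted p up to 0.148), with log2 changes from -1.78 to -1.51.

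As a description of the 4 profiles over the 8 arrays, TSA exposure accounted for 80.2% of the sum of squares of log2 signal of Id1, and the experiment for 3.51%. For Id3 the order was reversed, with 8.44% for TSA and 82.0% for the experiment, and Id4 had 16.4% and 77.3%. Id2 had 0.185% for TSA and 43.5% for the experiment. AzaC accounted for 6.32% or less in each of the 4.

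**Figure D3:**
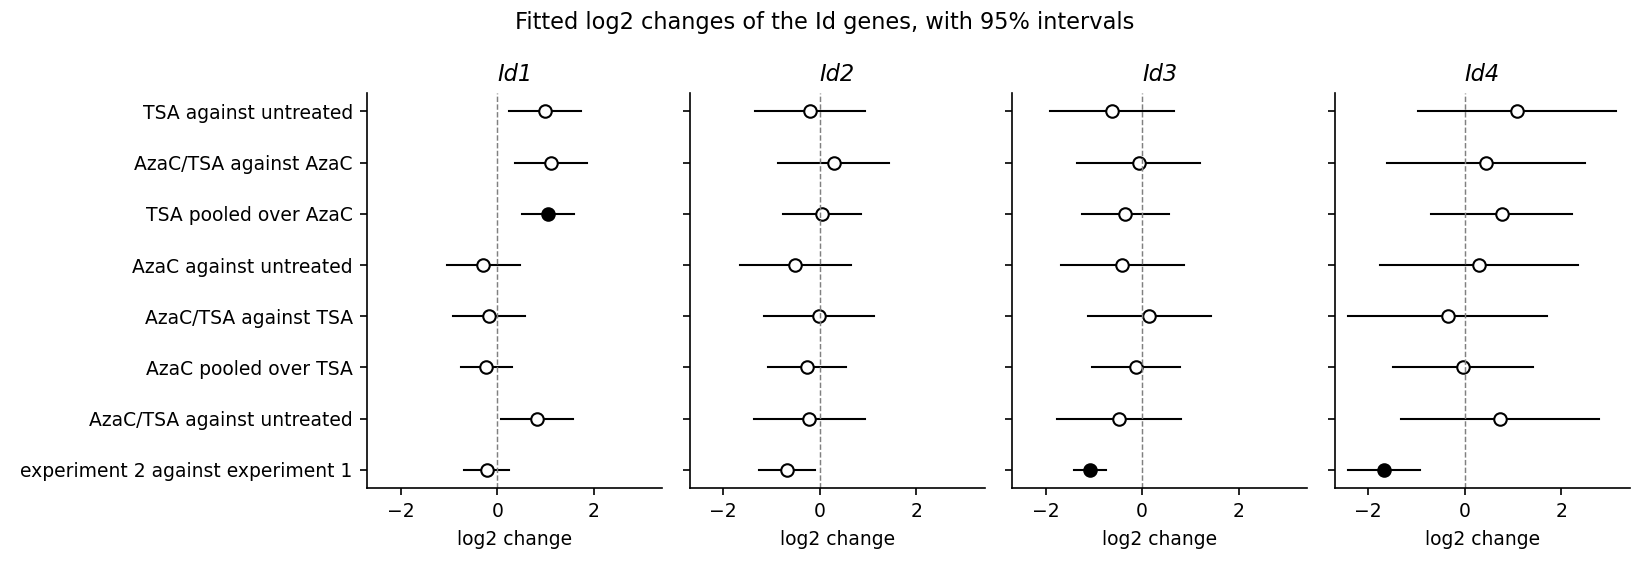
Fitted log2 changes of the Id genes (points) with 95% intervals (lines) for 7 comparisons of treatments and for experiment 2 against experiment 1. Filled points passed an adjusted p of 0.05: Id1 for TSA pooled over AzaC (1.05), and Id3 (-1.09) and Id4 (-1.66) for the experiments.

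Signs of RNA integrity and of cell composition were read beside these results. The ratio of 5′ to 3′ actin control signals was 0.29 to 0.39 on arrays with TSA, against 0.332 to 0.471 without, and 0.332 to 0.398 in experiment 2, against 0.29 to 0.471 in experiment 1. The summed signal of 8 measured markers of neural stem and progenitor cells was 5613.1 to 12561 on arrays with TSA, against 14320 to 16974.7 without, and none of the 8 lay below the floor on all arrays. Fabp7 carried that gap (1062.9 to 5499.4 with TSA, against 7830.1 to 10920.1 without), and the sum of the other 7 overlapped (4550.2 to 7061.6, against 5767.6 to 6489.9). The summed signal of 5 astrocyte markers was 1416.2 to 2684.8 with TSA, against 702.3 to 3832.2 without, and that of 8 neuronal markers was 1718.7 to 2501.4, against 2008.1 to 2810.5. Within these overlapping sums single markers parted: of the neuronal markers 3 of 8 lay higher on every array with TSA and 1 lower, and of the astrocyte markers 1 of 5 higher and 1 lower. Over all tested probe sets 10.9% parted upward in this way and 12.6% downward. Of the astrocyte markers, Clu had 1021.8 to 2048.8 with TSA, against 71.8 to 97.9 without, and S100b had 59.7 to 104.2, against 128 to 219.9. Of the neuronal markers, Snap25 had 252 to 615.4 with TSA, against 4.3 to 31.8 without. Syp had 79.2 to 108.4, against 6.7 to 50.1, Stmn2 had 126.1 to 210.3, against 56 to 78.4, and Tubb3 had 834.1 to 1486.3, against 1634.6 to 2375.9. Of 5 microglial markers Cd68 alone parted, with 166.9 to 474.1, against 30 to 53. Of 4 markers of fibroblasts and meninges Dcn alone parted, with 43.2 to 78.3, against 7 to 34.7. Between experiments the stem cell sums overlapped, with 5613.1 to 16974.7 in experiment 2, against 7174.1 to 16340.4 in experiment 1. The blood cell sums did not, with 33.5 to 109.3 in experiment 2, against 128.2 to 161 in experiment 1. The sums of the other cell types overlapped. Of single markers, Aldoc of astrocytes lay higher in experiment 2 (497.8 to 3451, against 217.8 to 496.6). Cd34 of blood cells lay lower there (5.9 to 18.3, against 27.9 to 95), below the floor on each array of experiment 2. The part of these differences in the Id results was not tested.

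The partners of the Id proteins were examined in the arrays with TSA against those without. Of 6 tested genes for E proteins and pocket proteins 1 rose and 2 fell (median log2 change -0.16, against -0.03 over all tested probe sets), where 6.95% of all tested probe sets passed upward and 7.54% downward. With the experiment as a block 1 rose and 3 fell, where 23.9% passed in either direction. The E protein gene Tcf12 fell (-0.80, SE 0.20, adjusted p = 0.0296 by limma). Its signals in experiments 1 and 2 were 1289.7 and 910.6 in AzaC/TSA cells and 1034.4 and 718.8 in TSA cells, against 1724.5 and 1365.2 in AzaC cells and 1902 and 1808.2 in untreated cells, and the arrays with and without TSA did not overlap, as was seen downward in 12.6% of tested probe sets. The E protein gene Tcf4 had -0.69 (SE 0.27, adjusted p = 0.13) and passed with the experiment as a block (adjusted p = 0.00954 by limma), while Tcf3 had 0.51 (SE 0.54). Rb1, which encodes the retinoblastoma protein that Id2 binds, rose (1.14, SE 0.26, adjusted p = 0.0225 by limma), and a second, dimmer probe set had 1.09 and did not pass. Rbl1, for the related pocket protein p107, fell 3.21-fold (-1.68, SE 0.26, adjusted p = 0.00404 by limma), and the related Rbl2 had 0.37. The Rbl1 signals were 77.3 and 82.4 in AzaC/TSA cells and 95.2 and 72.4 in TSA cells, against 217.3 and 345.9 in AzaC cells and 212 and 292.1 in untreated cells. They did not overlap, and Rbl1 passed in all 15 alternatives. Tcf12 lost its call without either untreated array, AzaC 1, TSA 2 or AzaC/TSA 2 (log2 changes -0.93 to -0.67), and Rb1 without either untreated array, AzaC 2, either TSA array or AzaC/TSA 1 (0.91 to 1.38).

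Among the tissue-specific bHLH factors that pair with E proteins, 26 of 32 were on the array and 8 were tested. Of the 8, 1 rose and 0 fell, where 6.95% of all tested probe sets passed upward and 7.54% downward. The gene that rose was Neurod1, a factor of neuronal differentiation, with a log2 change of 1.45 (SE 0.37, adjusted p = 0.0343 by limma). Its signals were 58.6 and 88.7 in AzaC/TSA cells and 66.7 and 98.9 in TSA cells, against 14 and 36.8 in AzaC cells and 24.9 and 33.6 in untreated cells, and the value of 14 was below the floor. The size of the change depended on the floor, from 0.93 to 1.58 over settings with all arrays kept. Of the others, Tcf15 had -0.85 (SE 0.33), Scx 0.90 (SE 0.40) and Twist1 0.49 (SE 0.60). Neurod1 reached the filter signal on arrays with TSA alone, so it had to differ there. Its call was also lost without any array other than AzaC 2 (log2 changes 1.23 to 1.67). Of 5 tested bHLH genes of the Hes and Hey type, 0 passed, where 14.5% of all tested probe sets did. By limma 0 of the 5 had an unadjusted p under 0.05 (median 0.25). Hes1, a target of Notch signals, had 0.25 (SE 0.20), Hes2 -0.77 (SE 0.39), Hes6 0.66 (SE 0.42) and Hey1 0.30 (SE 0.50). Hes2 reached the filter signal on arrays without TSA alone, so the direction of its change gives no support of its own.

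Over the lists of BMP ligands, BMP receptors, BMP antagonists and Smads of any pathway, 1 of 19 tested genes passed, where 14.5% of all tested probe sets did. Of 3 ligand genes, Bmp7 fell (log2 change -1.94, SE 0.55, adjusted p = 0.0463 by limma). With 1 value, 18.8, below the floor, the size of the change depended on the floor (-1.96 to -1.66 over settings with all arrays kept). Its signals were 18.8 and 140.2 in AzaC/TSA cells and 37.1 and 41.5 in TSA cells, against 152.4 and 238.9 in AzaC cells and 130.6 and 196.7 in untreated cells. The AzaC/TSA array of experiment 2 lay among the arrays without TSA, and the call was lost without any untreated, AzaC or TSA array (-2.64 to -1.24). Bmp4 had 0.35 (SE 0.28) and Bmp6 0.80 (SE 0.54). The Bmp6 value was set by the floor, with 2 arrays with TSA and all 4 without below it, and it ran from 0.30 to 1.17 over settings with all arrays kept. Of 6 receptor genes (median 0.08) and 6 Smad genes (median -0.33), 0 passed and 0 had an unadjusted p under 0.05 by limma in the probe sets used. The type I receptor genes had 0.93 (SE 0.45) for Acvr1, 0.34 (SE 0.36) for Bmpr1a and -0.16 (SE 0.32) for Acvrl1, whose other 2 probe sets had 0.07 and 1.18, and the type II receptor gene Acvr2b had -0.23 (SE 0.33). The signal-carrying Smad genes had -0.71 (SE 0.40) for Smad5 and -0.42 (SE 0.22) for Smad2, and the inhibitory ones -0.76 (SE 0.36) for Smad7 and 0.79 (SE 0.50) for Smad6. Over settings with all arrays kept, Acvr1 ran from 0.30 to 1.18 and Smad6 from 0.19 to 1.17. Acvr1 and Bmp6 reached the filter signal on arrays with TSA alone, and Smad5 and Smad7 on arrays without TSA alone. They passed the filter through those arrays, so the direction of their changes gives no support of its own. Of 4 genes for secreted antagonists 0 passed, and 1, Fst, had an unadjusted p under 0.05 (1.16, SE 0.39, adjusted p = 0.0787 by limma). Fst reached the filter signal on arrays with TSA alone, so it had to differ there, and its AzaC array of experiment 2 (18.5) lay below the floor. The others had -1.06 (SE 0.53) for Nbl1, -0.38 (SE 0.67) for Nog and -0.04 (SE 0.28) for Twsg1 (0.0025 after quantile normalization).

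Of 7 genes for inhibitors of cyclin-dependent kinases 1 rose and 1 fell (median 0.82), where 6.95% of all tested probe sets passed upward and 7.54% downward. With the experiment as a block 3 rose and 1 fell, where 11.7% of all passed upward and 12.2% downward. Cdkn2a, which encodes p16 and p19Arf, rose (1.49, SE 0.31, adjusted p = 0.0136 by limma), and Cdkn2c, for p18, fell (-1.0, SE 0.21, adjusted p = 0.0136 by limma). The Cdkn2a signals were 128.7 and 275.9 in AzaC/TSA cells and 215.4 and 322.2 in TSA cells, against 76.4 and 81.4 in AzaC cells and 69.6 and 91.9 in untreated cells, without overlap. Cdkn2a lost its call without TSA 2 and Cdkn2c without untreated 2 or TSA 1, with log2 changes from 1.21 to 1.76 and from -1.11 to -0.89 over the arrays left out. Without the filter on low signal, Cdkn2a, Rb1, Tcf12, Neurod1 and Bmp7 lost their calls, as did Tcf12 and Bmp7 without the intensity trend of the fit. Cdkn1a, for p21, had 0.82 (SE 0.30, adjusted p = 0.105 by limma), which passed with the block (adjusted p = 0.00954). A second, dimmer Cdkn1a probe set had 0.52 (SE 0.25, adjusted p = 0.202 by limma). Cdkn1c had 1.21 (SE 0.55, adjusted p = 0.177 by limma) and also passed with the block (adjusted p = 0.0442). Its experiment 2 signals in AzaC and untreated cells, 11.1 and 2.1, lay below the floor. Cdkn2b, for p15, had 1.63 (SE 0.66, adjusted p = 0.136 by limma) and did not pass with the block (adjusted p = 0.053). Signals of Cdkn2b in TSA and untreated cells of experiment 2, 15.7 and 2.9, both lay below the floor. The probe sets of Cdkn1b, for p27, disagreed in sign (0.45 and -0.26). Over all 8 lists 3 of 45 genes rose and 4 fell, shares of the same order as the 14.5% of all tested probe sets. For TSA against untreated cells alone, 1 of the 45 passed, Rbl1 (-1.58, SE 0.36, adjusted p = 0.0421 by limma). With the block 1 rose and 4 fell. Over all tested probe sets 5.02% passed there, and 12.2% with the block. The Rbl1 call was lost without any untreated, TSA or AzaC/TSA array. Rbl1 was also the 1 gene of the 45 that passed for AzaC/TSA against untreated (-1.64, adjusted p = 0.0485 by limma) and for AzaC/TSA against AzaC cells (-1.78, adjusted p = 0.0398). Both calls were lost without any 1 of the 8 arrays. These calls and that for TSA against untreated were also lost without the filter, without the trend and with only the groups compared. The call for AzaC/TSA against untreated was lost with quantile normalization and with a floor at 20% of the trimmed mean as well. Neither AzaC against untreated nor AzaC/TSA against TSA cells gave a call among the 45 by limma, with 0 and 1 at an unadjusted p under 0.05.

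**Figure D4:**
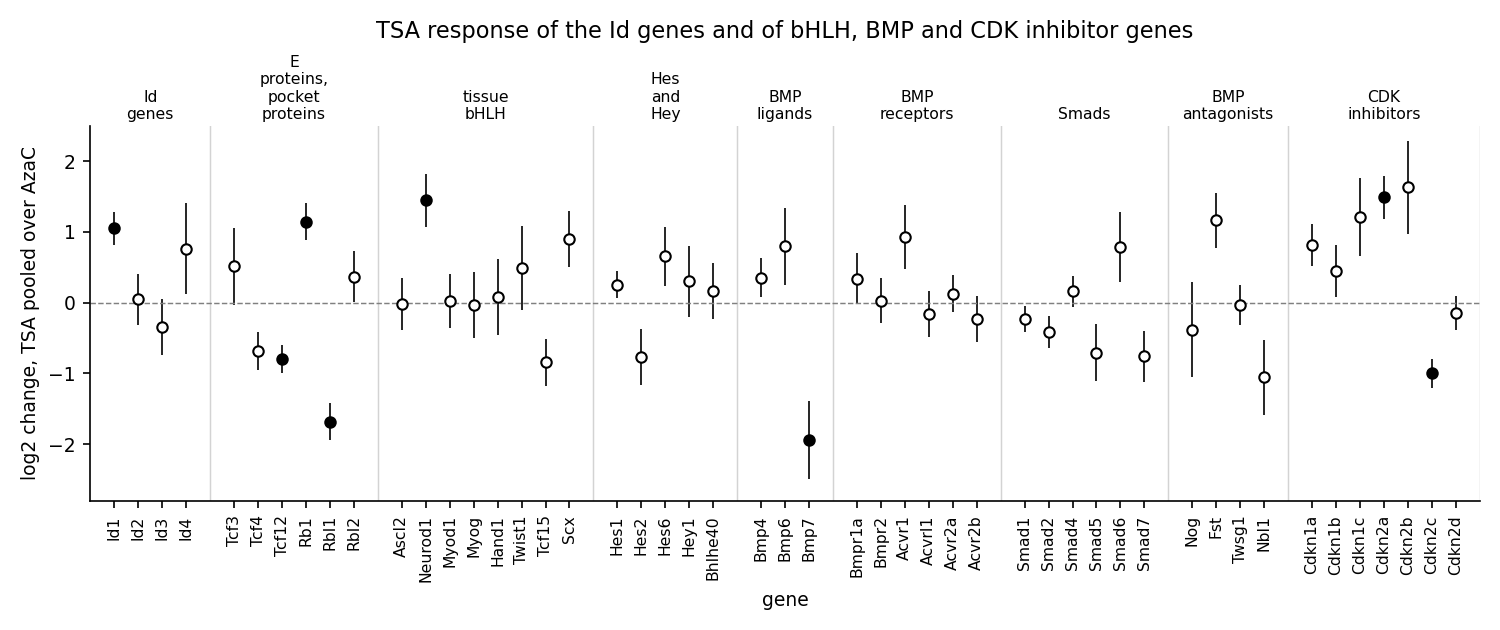
Log2 change over the 4 arrays with TSA against the 4 without for the Id genes and 45 genes of 8 lists, 1 probe set per gene. Bars are SE and filled points passed an adjusted p of 0.05. Id1 (1.05), Rb1, Neurod1 and Cdkn2a are the filled points above 0, and Tcf12, Rbl1, Bmp7 and Cdkn2c those below.

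Over the 8 arrays, the 5 named probe sets most like each Id gene by Pearson's r of log2 signal were listed. The 8 arrays form sets by TSA exposure and by experiment, so the r values are descriptions. For Id1 they were Prtn3, Fam126b, Mapre3, Frmd6 and Ypel3, with r from 0.990 to 0.975. For Id3 they were Ndufa3, Slc22a17, Ppargc1a, Ldhb and St6gal1 (0.977 to 0.963), and for Id4 Ptprd, Aldh7a1, Bag3, Tsnax and Ctsz (0.983 to 0.965). For Id2, with r from 0.944 to 0.915, they were Asl, Stam, Mettl3, Dnajc3 and Rab6a. No Id gene was among the 5 of another, and r between Id genes ran from -0.10 (Id1 and Id3) to 0.67 (Id2 and Id4).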

How the data were processed

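RNA of 8 samples was hybridised to short-oligonucleotide arrays. Each deposited value is 1 linear intensity per probe set and array. From the values themselves, the authors had scaled each array to a 2%-trimmed mean of 200.1 (software: not given in the sources used here). The 66 control probe sets were left out, signals below 20 (10% of the trimmed mean) were set to 20, and log2 was taken. Probe sets were tested when 2 arrays reached 25% (a signal of 50). The array annotation gave 1 symbol to 10855 of 12488 probe sets, several to 396 and none to 1237. For list genes the brightest tested probe set was used.

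limma 3.58.1 in R 4.3.3 fitted 1 mean per group over all 8 arrays, with an intensity trend. Tests were two-sided with Benjamini-Hochberg adjustment over 7987 probe sets. The pooled TSA change is the mean of AzaC/TSA and TSA minus the mean of AzaC and untreated, and the pooled AzaC change is built likewise. The experiment number in the titles pairs arrays: deviations from group means correlated between groups with r from 0.203 to 0.411. The experiment as a block was therefore an alternative. So were quantile normalization, other floors and filters, no trend, only the groups compared, and each array left out. The fit was tested on simulated data. Nothing in the sources says that the cultures of an experiment came from different animals, so p-values measure the spread between these samples.

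The members and the 8 lists were chosen with earlier results of these data known. Named genes were the 4 members, list members past the threshold or among the 4 of smallest p in the pooled TSA comparison, and the 5 most alike probe sets per member. Tcf3 and Rbl2 were added to complete their families, Cdkn1b for its probe sets of opposite sign and Cdkn1c for its call with the block.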

Additional observations from a re-analysis of the deposited data

How the results depend on the processing

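With the experiment as a block (the replicate number pairs the arrays), the number of Id genes past the threshold was 1 (Id1) in place of 0 for AzaC/TSA against AzaC, and that number did not change in the other comparisons of treatments. Without the filter it was 0 in place of 1 for the pooled TSA change, and with 1 array left out it lay between 0 and 1. For experiment 2 against experiment 1, Id3 did not pass without the filter (-1.09, adjusted p = 0.12) or without the intensity trend (-1.09, 0.0673), nor Id4 without the filter (-1.66, 0.161) or with the stricter filter (-1.66, 0.054); the cause was not tested. Leaving out arrays gave -1.17 to -1.0 for Id3 and -1.78 to -1.51 for Id4. Id2 in AzaC/TSA against TSA turned to 0.0079 and Twsg1 in the pooled TSA change to 0.0025 after quantile normalization, and Id4 in the pooled AzaC change to 0.10 with a floor at 20% of the trimmed mean; none of these passed before or after. None of the following log2 changes passed as reported, and each changed sign with 1 array left out. AzaC against untreated ran from -0.72 to 0.15 for Id1, -1.08 to 0.26 for Id3 and -0.65 to 1.23 for Id4. AzaC/TSA against untreated ran from -1.13 to 0.70 for Id2 and -0.32 to 1.79 for Id4. AzaC/TSA against AzaC ran from -0.63 to 1.20 for Id2, -0.74 to 0.60 for Id3 and -0.61 to 1.5 for Id4. AzaC/TSA against TSA ran from -0.93 to 0.90 for Id2, -0.47 to 0.77 for Id3 and -1.41 to 0.70 for Id4. The interaction ran from -0.31 to 0.55 for Id1, -0.43 to 1.4 for Id2, -0.11 to 1.22 for Id3 and -1.70 to 0.41 for Id4. The pooled TSA change ran from -0.41 to 0.50 for Id2, -0.15 to 1.12 for Twist1, -0.25 to 0.84 for Hey1, -0.42 to 0.10 for Acvrl1, -0.48 to 0.018 for Acvr2b, -0.88 to 0.12 for Nog and -0.28 to 0.20 for Twsg1. The pooled AzaC change ran from -0.72 to 0.20 for Id2, -0.46 to 0.20 for Id3 and -0.56 to 0.50 for Id4. The difference in TSA change between experiments ran from -1.38 to 0.032 for Id2, -0.21 to 0.43 for Id3 and -0.60 to 0.34 for Id4. Over all treatment comparisons of the Id genes, 450 values kept their direction and side of the threshold, 43 changed sign, 6 lost and 1 gained a call. The number of all probe sets past the threshold was 135 to 971 over settings and 56 to 367 with 1 array left out, against 401 as reported, for TSA against untreated; 49 to 746 over settings and 14 to 223 with 1 array left out, against 249 as reported, for AzaC/TSA against untreated; 45 to 744 over settings and 48 to 158 with 1 array left out, against 223 as reported, for AzaC/TSA against AzaC; 672 to 1908 over settings and 575 to 804 with 1 array left out, against 1157 as reported, for the pooled TSA change; 0 to 369 over settings and 68 to 256 with 1 array left out, against 337 as reported, for the experiments, with the highest of the treatment counts under the block and the lowest without the filter or with only the groups compared. It was at most 17 in the AzaC comparisons and the interaction. With the block, 4 of the 6 partners and 4 of the 7 CDK inhibitors passed in the pooled TSA change, against 3 and 2 as reported. Without the filter the pooled TSA calls of Rb1, Tcf12, Neurod1, Bmp7 and Cdkn2a were lost too. No Id signal lay below the floor.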
